A study of Homo sapiens with 16 samples.

Results

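The cytosolic ribosomal protein genes encode the proteins that, with ribosomal RNA, make up the large and small subunits of the ribosome outside mitochondria. They were taken by symbol, as RPL or RPS followed by a number with or without A, RPLP0 to RPLP2, RPSA and RPS4X. The rule found 77 genes of the 60669 listed in each of the deposited tables, 46 of the large and 31 of the small subunit. All 77 could be tested in both tables. The symbols left out FAU, which encodes a ribosomal protein fused to a ubiquitin-like protein, and RACK1, a signalling scaffold on the small subunit, which are given separately.

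The series holds 16 libraries from HMC3, an established human cell line described by the labels as microglial. Cells were wild type (WT) or labelled as a knockout (KO) of METTL3, the catalytic subunit of the enzyme that places N6-methyladenosine on messenger RNA. Per genotype there were 5 libraries made by Smart-seq2, which copies RNA from the poly(A) tail, and 3 made with a directional kit after removal of ribosomal RNA, each from 100 ng of RNA. No treatment, time point, clone or method of knockout was named, and nothing said that replicates came from separate cultures, so p-values measure only the spread between these samples.

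Ribosomal proteins are needed in about equal numbers, since each ribosome holds 1 copy of most of them and surplus proteins are degraded. Their messenger RNAs are short and abundant, and many begin with a C followed by a run of pyrimidines, the 5′ terminal oligopyrimidine (TOP) motif, through which mTOR and LARP1 control their translation and stability. Several ribosomal protein genes carry small nucleolar RNAs (snoRNAs) in their introns, and the family has left many processed pseudogenes in the genome.

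Several facts of the whole series touch the values below. In the rRNA-depleted libraries METTL3 itself stood at 31.2, 31.6 and 25.4 TPM (a share of the library after division by gene length) in WT and 39.2, 40.0 and 42.7 TPM in KO-labelled libraries. Its log2 change was 0.48, with a limma adjusted p of 0.106, and it was 0.09 (adjusted p = 0.654) in the authors' deposited table for the poly(A) libraries. The METTL3 level therefore did not check the label, and the libraries are called KO-labelled throughout. Recovered depth was 266157 to 487272 reads in WT and 512627 to 1267171 reads in KO-labelled rRNA-depleted libraries. KO-labelled libraries 1 and 2 differed by no more than sampling noise (chi-square 1.02 per degree of freedom, p = 0.065, against 1.16 to 1.53 for other pairs of a genotype) and were counted as 1 sample, which left 3 WT and 2 KO-labelled samples. Of 12 microglial markers, 8 were listed at 0 in all 6 libraries, among them AIF1, CX3CR1, P2RY12, PTPRC and TMEM119, and the list summed to 47.0 to 67.3 TPM in WT and 65.4 to 90.6 TPM in KO-labelled libraries. A list of 7 fibroblast and mesenchymal markers summed to 11650 to 14076 TPM in WT and 5624 to 5722 TPM in KO-labelled libraries, with none of them at 0 in every library. COL1A1 held most of the WT sum. Of the 6 that could be tested, 3 were lower, COL1A1 among them (-3.70), and FN1, THY1 and VIM were higher, by 1.05 to 2.24 on the log2 scale. The part of these differences in the results below was not tested.

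Start sites show the shared sequence feature of the family. RefSeq start windows on GRCh38.p14 (250 bases before to 50 after each start) were at hand for 62 of the 77 genes, in 77 windows, since some genes have several starts. A C at the start followed by at least 4 C or T on the sense strand was found in 46 of the 77 windows (59.7%), against 1429 of all 35116 windows (4.07%). The lines below give 15 bases before and 15 from the start, 5′ to 3′ on the gene's strand, with the pyrimidine run that begins at the start in capitals. They are shown for genes that the results turn on: RPSA and RPS9, which fell in the rRNA-depleted libraries, RPS27, RPS18 and RPS21, which rose there and fell in the poly(A) libraries, RPL31, which rose in both, and RPL41 and RPS10, the lowest in the poly(A) comparison.
RPSA, chr3:39406705-39406734, plus strand: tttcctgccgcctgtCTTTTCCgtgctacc
RPS9, chr19:54200843-54200872, plus strand: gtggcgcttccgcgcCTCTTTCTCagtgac
RPS27, chr1:153990747-153990776, plus strand: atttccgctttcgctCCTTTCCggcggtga
RPS18, chr6:33272060-33272089, plus strand: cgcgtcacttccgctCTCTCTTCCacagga
RPS21, chr20:62387088-62387117, plus strand: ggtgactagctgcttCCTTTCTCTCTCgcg
RPL31, chr2:101002274-101002303, plus strand: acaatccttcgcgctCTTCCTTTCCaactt
RPL41, chr12:56116618-56116647, plus strand: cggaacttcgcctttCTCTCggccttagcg
RPS10, chr6:34426055-34426084, minus strand: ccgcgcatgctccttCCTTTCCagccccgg

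Another 16 genes had windows without the motif at a listed start, among them RPS4X, RPL4 and RPL27. The 3 are shown because RPS4X and RPL27 were among those that rose most and RPL4 rose in both library types. The search looked only at the listed start base. In the RPL4 window a C with a run of pyrimidines comes a few bases after that base.
RPS4X, chrX:72277234-72277263, minus strand: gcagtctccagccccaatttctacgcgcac
RPL4, chr15:66504841-66504870, minus strand: tacagcgggagtggtaagcacttccttttc
RPL27, chr17:42998404-42998433, plus strand: ccggggtgaaaggttagcggaagtgtcctt

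The motif of ETS-family factors, GCGGAAGTG on either strand, was found in 11.7% of the windows of these genes and in 1.22% of all windows. TATAAA on either strand was found in 6.49% and in 11.5%. These are matches of letters, not shown sites.

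In the rRNA-depleted libraries most ribosomal protein genes were higher in the KO-labelled samples. A small group was lower, with log2 changes from -3.08 (RPL17) to -0.48 (RPS27A), and included RPSA and RPS2, the most abundant in WT. With limma on log2(TPM + 1) over 14789 genes and Benjamini-Hochberg adjustment at 0.05, 54 of the 77 were higher and 6 lower, and 17 did not pass. Of all genes tested, 35.3% passed, 22.9% as higher and 12.4% as lower. The median log2 change of the 77 genes was 1.004, against 0.41 for all genes tested, so the median lay 0.59 above that of all genes. Single genes ranged from -3.08 (RPL17) to 3.50 (RPS27). All KO-labelled samples lay above all WT samples for 57 of the genes and below them for 9, against 41.1% and 21.6% of all genes. Without KO-labelled library 3, or without the mean of KO-labelled libraries 1 and 2, 29 were higher and 4 lower, since 1 KO-labelled sample was then left.

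TPM is a share of the library, so a change in a few abundant genes moves all others. After scaling each library by the median ratio over genes, the median of all genes moved to 0.11 and that of the ribosomal protein genes to 0.65. The calls then were 43 higher and 10 lower, against 16% and 16.9% of all genes. In bulk RNA, fewer cells of a type and less RNA per cell cannot be told apart.

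**Figure D1:**
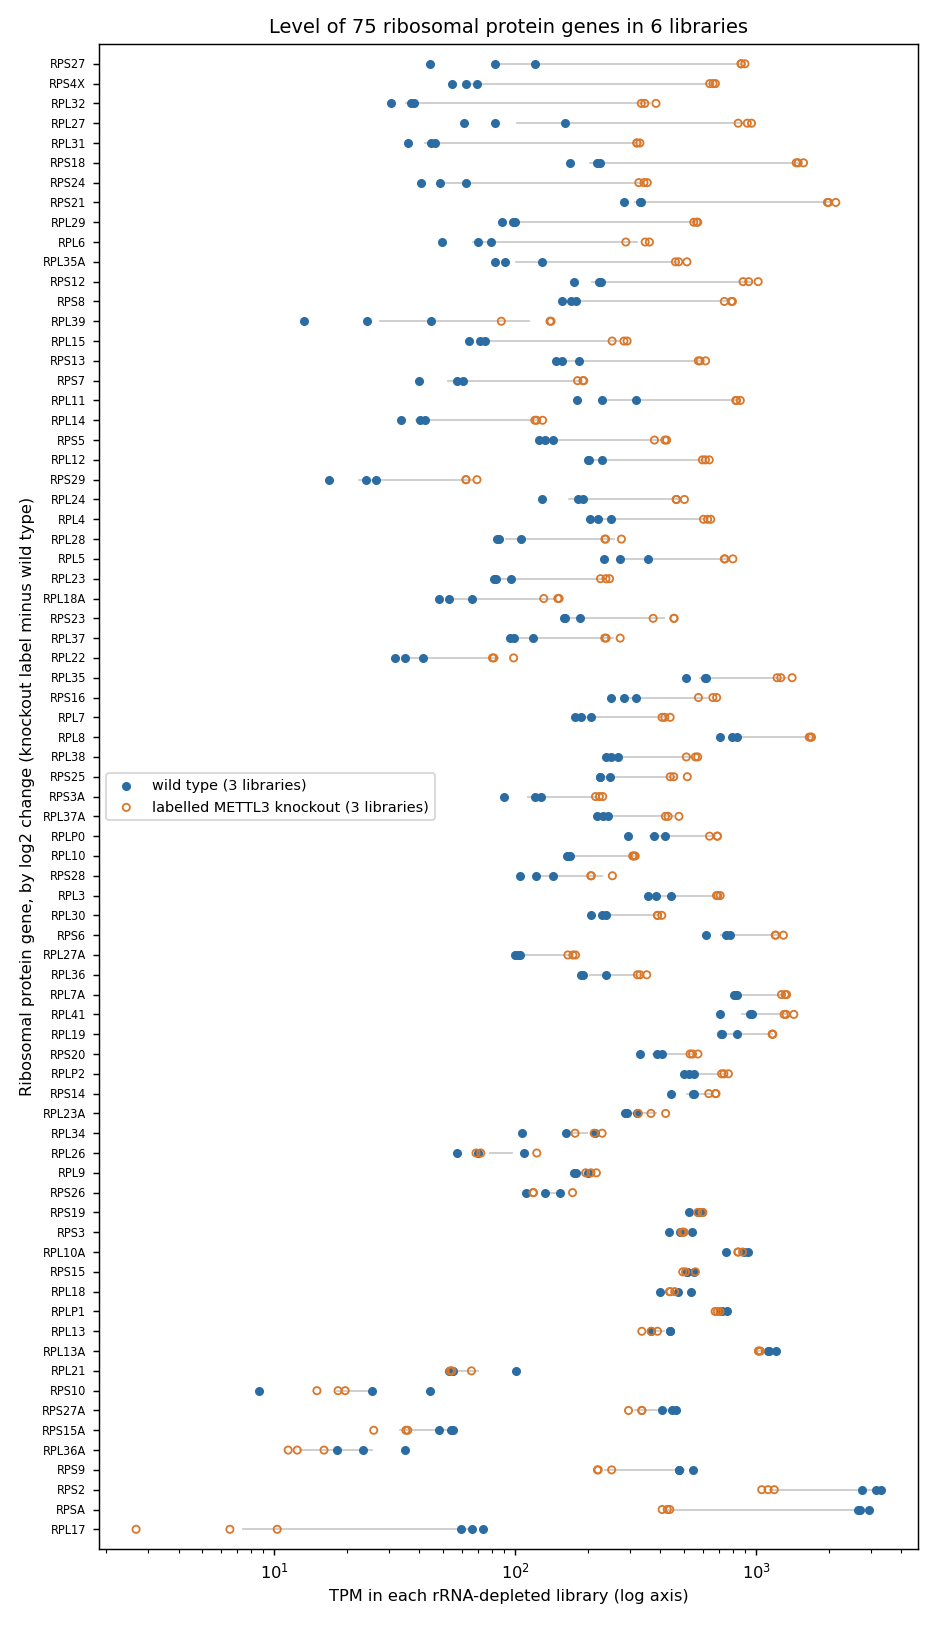
Each row is 1 of 75 of the 77 ribosomal protein genes, ordered by log2 change, and each point is its TPM in 1 rRNA-depleted library (log axis): filled for the 3 WT and open for the 3 KO-labelled libraries, with a grey line between the group means. Open points lie to the right of the filled ones in most rows, from RPS27 at the top, and to the left of them in the bottom rows of RPL17, RPSA, RPS2 and RPS9.

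Among the genes that fell was RPSA (chr3:39406689-39412542 on GRCh38 in GENCODE 29, plus strand), which encodes the small-subunit protein uS2, also described as a laminin receptor precursor. Its level was 2935, 2645 and 2709 TPM in WT libraries 1 to 3 and 438, 427 and 407 TPM in the KO-labelled ones. The groups were far apart and the spread within each was small, with a log2 change of -2.72 ± 0.10 (SE) and a limma adjusted p of 0.000689. It rested on 248 to 1781 recovered reads per library. The authors' deposited table gave RPSA -0.23 on the log2 scale, with an adjusted p of 0.108.

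RPS2 (chr16:1962052-1964860, minus strand) encodes a protein at the mRNA entry channel of the small subunit. It stood at 3153, 2740 and 3302 TPM in WT and at 1120, 1054 and 1188 TPM in KO-labelled libraries, again without overlap. The log2 change was -1.43 ± 0.13, with a limma adjusted p of 0.00227, and the authors' deposited table gave -0.47 with an adjusted p of 0.000337. RPSA and RPS2 together made up 22.7, 21.4 and 23.6% of the TPM of all 77 genes in the WT libraries. In the KO-labelled libraries RPS21 and RPL8 were the highest pair, at 9.18, 8.77 and 8.77%. RPS2 shares 351 exon bases on its strand with the pseudogene AC005363.1, which lies over it. RPL8 lies outside the rule by which genes were named and is given here for its level.

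RPS9, which binds early in small-subunit assembly, fell by 1.09 on the log2 scale (limma adjusted p = 0.00324). Its levels were 480, 478 and 548 TPM in WT and 221, 219 and 251 TPM in KO-labelled libraries. RPS27A, made as a fusion with ubiquitin, went from 466, 407 and 448 TPM to 335, 335 and 295 TPM, a log2 change of -0.48 with a limma adjusted p of 0.0263. RPS15A, another small-subunit protein, changed by -0.65 (limma adjusted p = 0.0315), from 55.1, 54.2 and 48.4 TPM to 35.1, 25.8 and 35.8 TPM. The samples of the 2 groups did not overlap for any of these 3 genes, and the authors' deposited table also called RPS2, RPS9, RPS15A and RPS27A lower. The RPS15A call was the least firm: it was lost on leaving out any single WT library or either KO-labelled sample, with limma adjusted p between 0.0512 and 0.114. RPS27A lost its call without WT library 1 or 3 and without either KO-labelled sample, with limma adjusted p between 0.0618 and 0.144.

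RPL17, near the peptide exit site of the large subunit, had the lowest change of all, -3.08 ± 0.34 (limma adjusted p = 0.00355), from 73.2, 65.8 and 59.5 TPM to 2.67, 6.53 and 10.3 TPM. Those values stand for 25, 16 and 25 recovered reads in WT and 2, 6 and 4 in the deeper KO-labelled libraries. RPL17 shares 611 exon bases on its strand with the read-through gene RPL17-C18orf32, so its reads could be split between them. The authors' deposited table gave RPL17 -0.53 with an adjusted p of 0.378.

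GENCODE 29 places snoRNA genes inside annotated exons of 24 of the 77 genes (retained-intron transcripts count as exons there). RPSA holds SNORA6 and SNORA62, RPS2 holds SNORA10 and SNORA64, and RPL17 holds SNORD58A, SNORD58B and SNORD58C, so 3 of the 6 genes that fell are hosts. Among the 24 hosts, 16 were higher and 3 lower, with a median log2 change of 0.79. Among the other 53 genes, 38 were higher and 3 lower, with a median of 1.13. Whether reads from snoRNAs or introns entered these values was not tested.

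**Figure D2:**
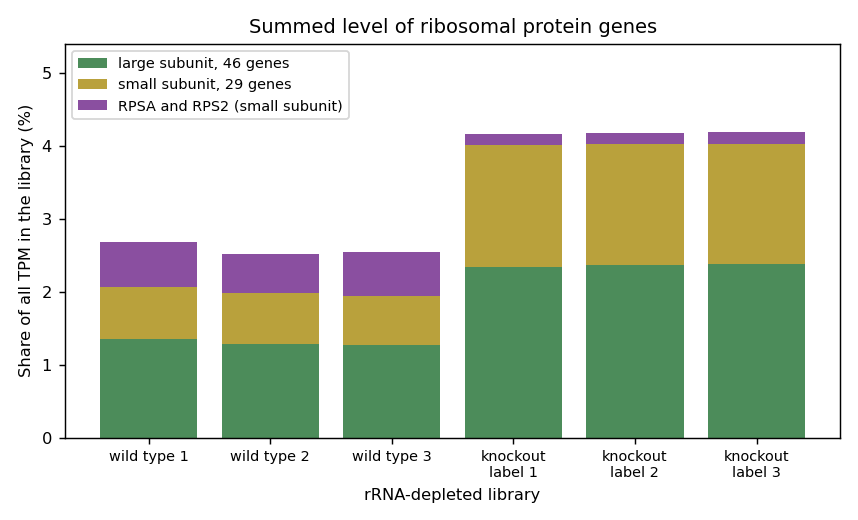
Bars give the share of all TPM in each rRNA-depleted library (%) taken by the 46 large-subunit genes, by 29 small-subunit genes and by RPSA with RPS2. The 3 WT bars reach 2.68, 2.52 and 2.55% and the 3 KO-labelled bars 4.17, 4.17 and 4.19%, and the RPSA and RPS2 segment is thinner in the latter.

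Summed over the 77 genes, the level was 26798, 25158 and 25502 TPM in WT and 41675, 41733 and 41860 TPM in KO-labelled libraries, a ratio of 1.62. The spread within each group was small beside the gap between them. As a share of recovered reads, the 77 genes held 2.86, 2.84 and 2.71% in WT and 3.48, 3.49 and 3.68% in KO-labelled libraries. That gap was narrower than the gap in TPM. The large-subunit genes summed to 13543, 12832 and 12755 TPM against 23446, 23699 and 23773 TPM, a ratio of 1.81. The small-subunit genes, which include RPSA and RPS2, summed to 13256, 12325 and 12747 TPM against 18229, 18034 and 18087 TPM, a ratio of 1.42. Without RPSA and RPS2 the remaining 75 genes summed to 19991 ± 639 TPM (SD, n = 3) in WT and 40224 ± 56.7 TPM (SD, n = 2) in KO-labelled samples, a ratio of 2.01. The 53 genes with no snoRNA in their exons summed to 13815 ± 399 TPM (SD, n = 3) and 29135 ± 31.7 TPM (SD, n = 2), a ratio of 2.11.

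Most of the subunits' single genes moved alike. Of the 46 large-subunit genes 34 were higher and 1, RPL17, was lower, with a median log2 change of 1.03. Of the 31 small-subunit genes 20 were higher and 5 lower, with a median of 1.004. The median level of a ribosomal protein gene was 188, 175 and 181 TPM in WT and 439, 439 and 455 TPM in KO-labelled libraries.

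The genes that rose most came from both subunits, and the 4 described next stood at or below 161 TPM in every WT library. RPS27 (chr1:153990755-153992155, plus strand), a zinc-finger protein of the small subunit, stood at 82.4, 120 and 44.3 TPM in WT and at 865, 898 and 867 TPM in KO-labelled libraries. The log2 change was 3.50 ± 0.41 (limma adjusted p = 0.004), and the WT values rested on 12, 12 and 8 reads. RPS4X (chrX:72255679-72277300, minus strand), the X-linked form of the small-subunit protein eS4, went from 54.6, 69.4 and 62.2 TPM to 662, 677 and 641 TPM, a log2 change of 3.39 ± 0.13 (limma adjusted p = 0.000689). Every KO-labelled library was many times above every WT library for both genes.

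The large-subunit gene RPL32 rose by 3.33 ± 0.15 on the log2 scale (limma adjusted p = 0.000872), from 38.1, 30.6 and 37.0 TPM to 333, 345 and 384 TPM. RPL27, also of the large subunit, rose by 3.23 ± 0.41 (limma adjusted p = 0.00466), from 161, 61.3 and 82.7 TPM to 918, 956 and 842 TPM, with the WT libraries spread widely. None of these 4 genes rose in the authors' deposited table: it called RPS27, RPL32 and RPL27 lower, at -0.61, -0.43 and -0.59, and gave -0.13 for RPS4X, which did not pass. RPS27 and RPL27 lost their calls without either KO-labelled sample, where the remaining KO-labelled sample was alone in its group.

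For these genes the 2 library types did not move together. In the authors' deposited table for the poly(A) libraries, 42 of the 77 genes were lower, 2 higher and 33 not called at an adjusted p under 0.05, against 10.3% lower and 9.55% higher, 19.9% together, among the 14009 genes with an adjusted p. Log2 fold changes below 0 were listed for 72 of the 77 genes in the authors' deposited table, against 48.5% of all genes. The median in the authors' deposited table was -0.36 for the 77 and 0.02 for all genes. That table has no per-library values and does not name its numerator. A positive value was read as higher in KO-labelled cells, and 162 of 177 other genes called in both library types and past 1 in absolute log2 change (91.5%) then had the same sign in the authors' deposited table and in the rRNA-depleted libraries. If the numerator were WT, each direction from that table would be opposite.

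The changes in the authors' deposited table were small, from -1.04 (RPS10) to 0.62 (RPL31). The RPS10 value rested on a mean normalized count of 16.4, against a median of 523 for the 77 genes. Crossing the 2 sets of calls, 29 genes were higher in the rRNA-depleted libraries and lower in the authors' deposited table, 2 were higher in both and 4 lower in both. Another 23 were higher and 2 lower in the rRNA-depleted libraries alone, 9 were lower in the authors' deposited table alone, and 8 were called in neither. Across the 77 genes, which share libraries, the log2 change in the rRNA-depleted libraries and the log2 fold change of the authors' deposited table correlated with r = 0.10 (Pearson) and rho = 0.11 (Spearman). Neither the crossing nor the correlation was made over all genes, so whether the pattern is particular to these genes was not tested.

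**Figure D3:**
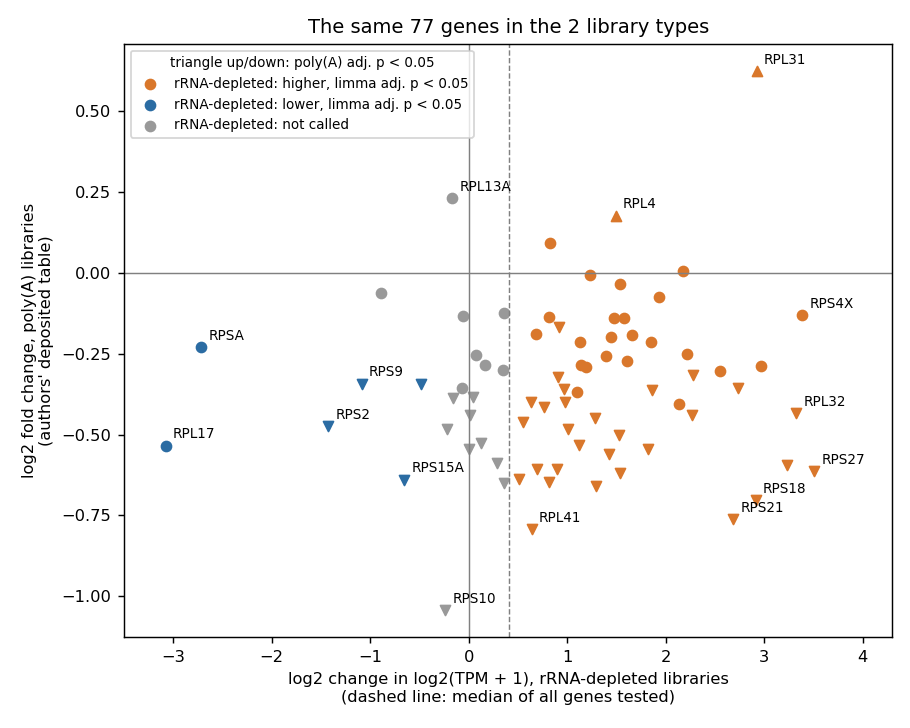
Each point is 1 of the 77 genes, with the log2 change in the rRNA-depleted libraries on the x axis and the log2 fold change of the authors' deposited poly(A) table on the y axis. Colours give the limma call and triangles the authors' call. Most points lie right of 0 and below 0, with RPL31 and RPL4 the 2 upward triangles and RPSA, RPS2, RPS9 and RPL17 at the left.

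RPL31 and RPL4 were the 2 genes higher in both. RPL31, near the peptide exit site, went from 46.5, 35.7 and 44.5 TPM in WT to 319, 320 and 329 TPM in KO-labelled libraries, a log2 change of 2.92 ± 0.15 (limma adjusted p = 0.00094). The authors' deposited table gave it 0.62 with an SE of 0.18 and an adjusted p of 0.00605. RPL4, whose long loop lines the exit tunnel, went from 250, 204 and 220 TPM to 604, 628 and 647 TPM, a log2 change of 1.49 ± 0.12 (limma adjusted p = 0.00183). For RPL4 the authors' deposited table gave 0.18 with an SE of 0.05 and an adjusted p of 0.00304.

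The lowest 5 of the genes called lower by the authors' deposited table were RPS10 (-1.04, adjusted p = 0.0209), RPL41 (-0.79, adjusted p = 1.28e-08), RPS21 (-0.76, adjusted p = 1.05e-05), RPS18 (-0.70, adjusted p = 9.9e-06) and RPS23 (-0.66, adjusted p = 0.000663). RPS21 and RPS18 were among the genes that rose most after rRNA depletion. RPS21 stood at 332, 283 and 328 TPM in WT and at 2140, 1997 and 1976 TPM in KO-labelled libraries, a log2 change of 2.68 ± 0.11 (limma adjusted p = 0.000689). RPS18, a small-subunit head protein near the decoding region, went from 224, 169 and 218 TPM to 1466, 1494 and 1572 TPM, a change of 2.91 ± 0.15 (limma adjusted p = 0.00094). For both genes the groups lay far apart in the opposite direction to the authors' deposited table.

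RPL41, the smallest ribosomal protein, had 957, 942 and 710 TPM in WT and 1331, 1432 and 1306 TPM in KO-labelled libraries, a log2 change of 0.64 ± 0.16 (limma adjusted p = 0.0326). That call was lost under the median ratio scaling (0.29, limma adjusted p = 0.264), with no filter on low values (limma adjusted p = 0.0546) and without either KO-labelled sample. RPS10 was thinly covered, with 3 to 13 reads per library, and its 8.63, 44.1 and 25.5 TPM in WT overlapped with 18.4, 15.01 and 19.7 TPM in KO-labelled libraries (limma adjusted p = 0.806). It shares 929 exon bases with the read-through gene RPS10-NUDT3 on the same strand, so its reads may be split between them.

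The counts by site and group that follow stand beside 54 higher and 6 lower of all 77 genes. Of all genes tested, 22.9% were higher and 12.4% lower. By site on the ribosome, the P stalk, the lateral arm that recruits translation factors, had 2 of its 3 genes higher, with a median log2 change of 0.51. RPLP0, its base, had 375, 416 and 295 TPM in WT and 640, 690 and 689 TPM in KO-labelled libraries, a log2 change of 0.92 (limma adjusted p = 0.0125). RPLP2 had a change of 0.51 (limma adjusted p = 0.0143), from 554, 524 and 499 TPM to 718, 734 and 766 TPM. Its partner RPLP1 stood at 721, 753 and 708 TPM and at 675, 690 and 707 TPM, a change of -0.07 that did not pass (limma adjusted p = 0.595). Under the median ratio scaling RPLP0 and RPLP2 did not pass and RPLP1 passed as lower (-0.42, limma adjusted p = 0.0362). Neither RPLP0 nor RPLP2 passed without either KO-labelled sample, where the adjusted p by limma was 0.0726 to 0.131, and RPLP2 did not pass with voom (limma adjusted p = 0.350). The authors' deposited table called RPLP0 (-0.17) and RPLP2 (-0.64) lower.

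RPL5 and RPL11, which carry 5S rRNA into the large subunit and, when free, bind MDM2, were both higher. RPL5 went from 355, 233 and 271 TPM to 741, 737 and 800 TPM, a log2 change of 1.44 (limma adjusted p = 0.00551). RPL11 went from 228, 318 and 181 TPM to 828, 859 and 822 TPM, a change of 1.82 (limma adjusted p = 0.00543). Neither kept its call without either KO-labelled sample, where the adjusted p by limma was 0.0803 to 0.0908. RPL11 was lower in the authors' deposited table (-0.54, adjusted p = 5.09e-05), where RPL5, at -0.20, did not pass.

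Of the 7 genes at the peptide exit site, 4 were higher (RPL19, RPL31, RPL35 and RPL39), RPL17 was lower, and RPL23A and RPL26 did not pass. RPL35 went from 614, 512 and 620 TPM to 1221, 1265 and 1409 TPM. RPL39 had few reads, from 4 in a WT library up to 110, and lost its call without WT library 2, without either KO-labelled sample and under the median ratio scaling. RPL19 was lost under that scaling too (0.28, limma adjusted p = 0.125), which left 2 of the 7 genes higher, and without either KO-labelled sample. RPL35 did not pass without KO-labelled library 3 (limma adjusted p = 0.0553). The authors' deposited table called 3 of these 7 genes lower and RPL31 higher.

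Around the mRNA entry and decoding sites, RPS18 and RPS23 were higher, RPS2 was lower, and RPS3 and RPS15 did not pass, with a median log2 change of 0.04. RPS23, which carries a loop into the decoding centre, went from 185, 160 and 161 TPM to 455, 456 and 373 TPM, a change of 1.29 (limma adjusted p = 0.0031). RPS3 stood at 483, 541 and 434 TPM against 491, 496 and 502 TPM, and RPS15 at 517, 552 and 515 TPM against 496, 509 and 559 TPM. The groups overlapped for both. The authors' deposited table called all 5 lower, at a median of -0.54.

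Among 17 genes mutated in Diamond-Blackfan anaemia, an inherited failure of red cell production, 12 were higher and 5 did not pass. Their median log2 change was 1.54. The share higher was similar to that of the whole family, 54 of 77, whose median was 1.004. RPS24 went from 62.4, 48.8 and 40.5 TPM to 342, 353 and 326 TPM, a change of 2.73 (limma adjusted p = 0.00152), and RPL35A and RPL15 changed by 2.27 and 1.93. RPS7, RPS28 and RPS29 also rose, with changes from 0.89 to 1.85, but did not pass without either KO-labelled sample, where the adjusted p by limma was 0.0656 to 0.143. RPS28 did not pass under the median ratio scaling either (limma adjusted p = 0.0833), nor RPL35A without the mean of KO-labelled libraries 1 and 2 (limma adjusted p = 0.0526). The 5 that did not pass were RPS10, RPS19, RPS26, RPL18 and RPL26. RPS19, the most often mutated of them, had 575, 593 and 524 TPM in WT and 572, 600 and 596 TPM in KO-labelled libraries. The authors' deposited table called 9 of the 17 lower and RPL31 higher, beside 42 lower and 2 higher of all 77.

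The 4 X-linked genes divided: RPS4X, RPL39 and RPL10 were higher, and RPL36A did not pass. RPL10, which joins the large subunit late in assembly, had 164, 165 and 169 TPM against 307, 310 and 315 TPM, a change of 0.90 (limma adjusted p = 0.00269). Of the RPL10 exon bases 52.7% are shared with genes of the opposite strand, and the use of strand behind the TPM is not given. RPL36A had 7 to 23 reads per library, shares 333 exon bases with RPL36A-HNRNPH2, and stood at 23.2, 18.3 and 34.7 TPM against 16.1, 12.4 and 11.4 TPM (limma adjusted p = 0.101). Under the median ratio scaling RPL36A passed as lower, at -1.23 (limma adjusted p = 0.0399).

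Of the 5 genes with the highest mean in WT, RPSA and RPS2 fell, RPL41 rose, and RPL13A and RPL10A did not pass. RPL13A, a large-subunit protein that hosts 4 snoRNAs in its gene, had 1214, 1131 and 1117 TPM in WT and 1040, 1023 and 1022 TPM in KO-labelled libraries. Its change of -0.17 did not pass (limma adjusted p = 0.222), but under the median ratio scaling it passed as lower (-0.52, limma adjusted p = 0.0175), and after removal of a GC trend it passed as higher (0.57, limma adjusted p = 0.0285). RPL10A had 920, 751 and 893 TPM and 842, 839 and 878 TPM, a change of 0.01 with overlapping groups. RPS6, the phosphorylated target of S6 kinase, rose from 749, 778 and 620 TPM to 1205, 1200 and 1297 TPM, a change of 0.81 (limma adjusted p = 0.00958) that did not pass under the median ratio scaling, after removal of a GC trend or without either KO-labelled sample. Across the 77 genes, the log2 change correlated with the log2 mean TPM in WT at r = -0.43 (Pearson) and rho = -0.45 (Spearman). The WT values enter both measures.

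**Figure D4:**
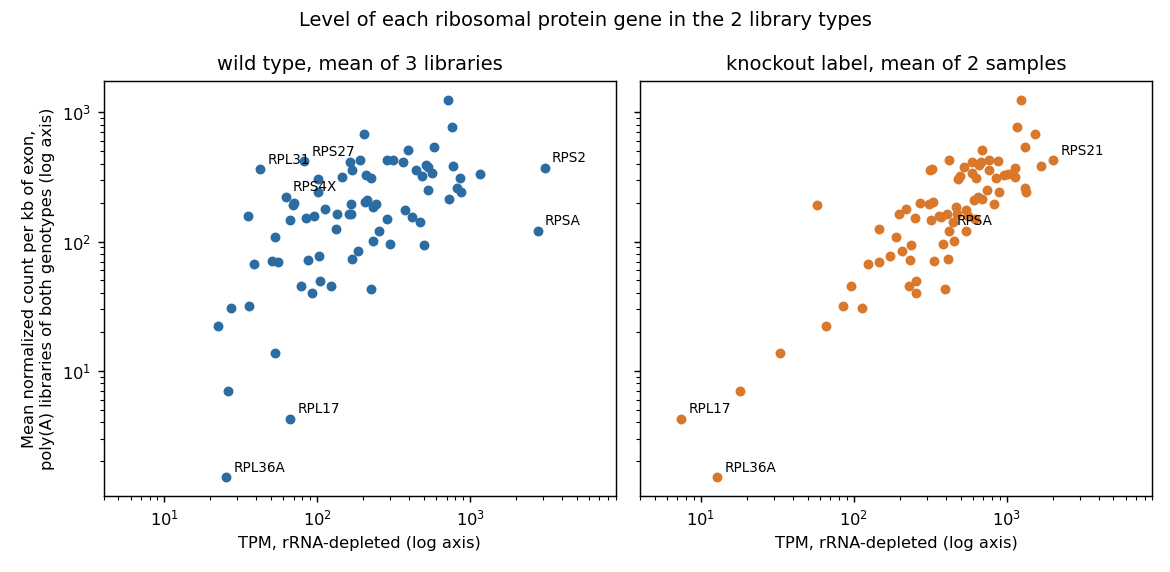
Each point is 1 of the 77 genes, with mean TPM in the rRNA-depleted libraries on the x axis (WT left, KO-labelled right) and the mean normalized count per kb of exon of the authors' deposited poly(A) table, pooled over both genotypes, on the y axis (both log axes). The points scatter more in the WT panel, where RPSA and RPS2 lie far to the right and RPL31, RPS27 and RPS4X to the left.

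The order of the genes' levels differed between the groups. Each WT library's TPM had a Spearman rho of 0.60, 0.57 and 0.55 with the length-scaled mean count of the authors' deposited table over the 77 genes, and each KO-labelled library had 0.80. The Pearson r of log2 values was 0.62, 0.58 and 0.56 in WT and 0.86, 0.87 and 0.87 in KO-labelled libraries. That mean pools poly(A) libraries of both genotypes, and the lengths are shared by both axes. The median recovered reads per gene were also fewer in WT, at 78, 52 and 86, than in KO-labelled libraries, at 459, 561 and 232. The part of depth in this difference was not tested.

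Exon length, GC content and the start motif were set beside the changes. Union exon lengths ran from 767 to 9845 bases and GC content from 37.4 to 63.7%. The log2 change had a Pearson r of -0.04 with GC content and -0.10 with log2 length. The 46 genes with the pyrimidine motif at a listed start had 31 higher and 3 lower and a median of 0.94, and the 16 without it had 11 higher and 1 lower and a median of 1.19. Medians in the authors' deposited table were -0.36 and -0.42. Since only the listed start base was searched, this split by motif also depends on where starts are annotated. The 15 genes that share exon bases with another gene of the same strand had 7 higher and 3 lower, with a median of 0.29, and the other 62 had 47 higher and 3 lower, with a median of 1.11.

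Of the ribosomal components left out by the symbol rule, FAU fell and RACK1 rose in the rRNA-depleted libraries. FAU went from 491, 544 and 529 TPM to 260, 231 and 269 TPM, a log2 change of -1.01 (limma adjusted p = 0.00271). RACK1 changed by 1.18 (limma adjusted p = 0.00276). The authors' deposited table called both lower, at -0.63 and -0.23. Of 8 paralogs of ribosomal protein genes, 6 could be tested, of which 5 were higher and RPL7L1 was lower. Of all genes tested, 22.9% were higher and 12.4% lower. Under the median ratio scaling 3 of the 6 were higher and 1 lower, against 16% and 16.9% of all genes. RPL7L1 changed by -2.32 (limma adjusted p = 0.000879), from 408, 371 and 439 TPM to 87.1, 79.3 and 77.7 TPM. RPL26L1, RPL22L1 and RPL39L rose most, by 2.66, 2.56 and 1.38, from no more than 20.6 TPM in any WT library. WT libraries 1 to 3 held only 2, 2 and 4 reads of RPL26L1, 5, 1 and 6 of RPL22L1, and 3, 2 and 2 of RPL39L. The 1390 annotated ribosomal protein pseudogenes, 330 of them above 0, summed to 1375, 1509 and 1499 TPM in WT and 3441, 3058 and 3285 TPM in KO-labelled libraries, a ratio of 2.24. Reads shared between a gene and its copies cannot be told apart here.

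Of 15 other messenger RNAs with TOP motifs, mostly translation factors, 14 could be tested. Of these, 11 were higher, EEF1D was lower (-0.72), and EEF1A1 and TPT1 did not pass, with a median log2 change of 1.33. Of all genes tested, 22.9% were higher and 12.4% lower. Under the median ratio scaling 10 of the 14 were higher and 1 lower, against 16% and 16.9% of all genes. EIF3H and EIF3E, subunits of the initiation factor that binds the small subunit, changed by 3.01 and 2.97. EEF1B2, an exchange factor for elongation factor 1A, changed by 2.44. WT libraries 1 to 3 held 11, 8 and 18 reads of EIF3H, 12, 8 and 12 of EIF3E, and 20, 15 and 20 of EEF1B2. The authors' deposited table called 5 of the 14 lower and 2 higher, with a median of -0.06. EEF1B2 was among those it called lower (-0.45, adjusted p = 0.00176), and EIF3H and EIF3E were not called there. EEF1G was listed at 0 in every rRNA-depleted library.

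Among 10 regulators of ribosome supply 7 were higher and UBTF was lower, against 22.9% higher and 12.4% lower of all genes tested. Under the median ratio scaling 5 were higher and 1 lower, against 16% and 16.9% of all genes. RRN3, which brings RNA polymerase I to its promoters, changed by 2.91 (limma adjusted p = 0.00418), from 5.11, 9.96 and 10.1 TPM to 67.7, 67.2 and 66.8 TPM. Its WT values rested on 3, 4 and 7 reads. UBTF, a factor that opens ribosomal RNA genes for transcription, changed by -1.63 (limma adjusted p = 0.00188). RPS6KB1, the S6 kinase gene, and EIF4EBP1, a translation repressor that mTOR inactivates, rose by 2.42 and 1.85, with 1 and 9 reads in their lowest WT libraries. The authors' deposited table called only RRN3 of these 10, as higher (0.33, adjusted p = 0.0238). Of 8 dedicated chaperones of ribosomal proteins, AAMP (-1.15) and HEATR3 (-1.61) were lower and PDCD2L was higher. PDCD2L was listed at 0 in every WT library and had at most 7 reads in a KO-labelled one. Under the median ratio scaling 1 of the 8 was higher and 3 were lower.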

How the data were processed

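The members and gene lists were chosen with earlier results of these data known. Per the submitters' processing notes, Trimmomatic, STAR and DESeq2 were used on build hg38; roles, versions, annotation and the use of strand are not given in the sources used here. After rRNA depletion the values the authors deposited are TPM. Of the poly(A) libraries they deposited 1 comparison. Per the file headers it gives the mean normalized count (a signal), the log2 fold change and its SE, the Wald score, and each p-value before and after adjustment.

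Exon lengths, positions and overlaps came from GENCODE 29 (93.9% of identifiers). TPM multiplied by length gave whole reads for 90.9% of values, to within 0.02 reads. limma 3.58.1 in R 4.3.3 (lmFit, eBayes with trend) was run on log2(TPM + 1), which understates changes of low genes, over genes that reached 1 TPM in 3 libraries or more. Tested on simulated reads, the step missed more changed genes than it recovered, called those it recovered in the right direction, and also called some unchanged genes of few reads. An alternative used limma's voom on recovered reads, with median ratio library sizes. Tables and figures were made with Python 3.11.15, numpy 2.4.6, pandas 2.3.3, scipy 1.17.1 and matplotlib 3.10.9.

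Genes were named by role (the ribosomal sites, anaemia genes and X-linked genes, with RPSA, RPS27A, RPS6, RPL13A, RPL41 and RPS4X), as the 5 highest in WT, as up to 5 that rose and 5 that fell most in each library type, and, of other lists, as up to 3 called genes of largest change in each direction. Some genes that this rule names are not reported here, though counts and sums include them.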

Additional observations from a re-analysis of the deposited data

How the results depend on the processing

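The libraries were shallow: 64 of the 77 genes had at least 20 recovered reads in every rRNA-depleted library, and with 2 KO-labelled samples single genes near the threshold changed sides. The poly(A) calls could not be refitted, since no value per library was used. The numbers of genes higher and lower (54 and 6) and their median log2 change (1.004, all genes 0.41, difference 0.59) were recomputed under each alternative. An adjusted p under 0.01 left 45 higher and 4 lower. The share of all genes called was computed for the main fit and the median ratio scaling only. Counts under the other alternatives therefore have no such share beside them. Leaving out 1 library or sample at a time gave 29 to 55 higher, 4 to 6 lower, a median of 0.99 to 1.06, an all-gene median of 0.36 to 0.50 and a difference of 0.54 to 0.69 (0.66 without KO-labelled library 2). The 29 came from leaving out KO-labelled library 3 or the mean of libraries 1 and 2, where 1 KO-labelled sample remained and was assumed to vary like the WT ones. The median ratio scaling gave 10 lower and medians of 0.65 and 0.11. Quantile normalization gave 1.07 and 0.072, a difference of 0.997, voom on recovered reads 15 lower, medians of 0.68 and -0.061 and a difference of 0.74, removal of a GC trend 1.19 and 0.54, and a pseudocount of 0.1 TPM an all-gene median of 0.53 and a difference of 0.48. The cause was not tested. Further alternatives were chosen after seeing the data. Genes with no snoRNA in their exons had 38 higher and 3 lower with a median of 1.13. Genes sharing no exon base with a same-strand gene had 47 and 3 with 1.11. Genes with at least 20 reads everywhere had 45 and 5 with 0.94. Asking for 1 or more in absolute log2 fold change left 0 higher and 1 lower in the authors' deposited table. With pseudogenes added, the mean sums were 27280 and 45049 TPM.

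Same-numbered libraries' deviations correlated at 0.02, -0.02 and 0.01, which gave no sign that replicate numbers pair the samples. Sampling noise in shallow libraries also lowers such correlations, so pairing was not excluded. With a replicate block over 6 separate libraries 54 were higher and 6 lower, with a median of 1.013, against 55 and 6 without it. Of 45 named genes, 18 kept their side of the threshold and direction under all 16 alternatives. RPL10A (-0.38), RPS15 (-0.38), RPS19 (-0.28), RPS3 (-0.30), RPL13A (-0.52) and RPL18 (-0.44) passed as lower with voom. After removal of the GC trend RPL10A (0.53), RPS15 (0.61), RPS19 (0.59), RPL13A (0.57) and RPL18 (0.68) passed as higher, so the direction of these 5 depends on the processing.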
